A study of Homo sapiens with 12 samples.

Results

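The 42 genes described here are transcription factors of the ATF4 stress response, its effectors, enzymes of amino acid synthesis, amino acid transporters and cytosolic tRNA synthetases. They were chosen by name, by matching their symbols to the Ensembl gene identifiers of the expression tables, and each of the 42 was found as 1 row among 37247 genes. All 42 had a mean of at least 1 TPM (a gene's share of its library after correction for its length, scaled to a fixed total) over the 6 libraries of each line, so all 42 were tested in both lines.

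RNA was sequenced from 4 groups of 3 libraries each: LC-2/ad cells after 48 h in 100 nM selpercatinib, untreated LC-2/ad parent cells, TPC-1 cells after 48 h in 100 nM selpercatinib, and untreated TPC-1 parent cells. LC-2/ad is a human lung adenocarcinoma line and TPC-1 a human papillary thyroid carcinoma line, both RET-aberrant by the series title and known to carry a RET gene fusion, and selpercatinib inhibits the RET receptor tyrosine kinase. The medium was RPMI-1640 for TPC-1 and RPMI-1640 mixed with F-12 for LC-2/ad, so the lines also differed in medium, and whether parent cells received the drug's solvent is not given in the sources used here. Each line is an established culture. Separate cultures are not stated for the 3 libraries of a group, so p-values reflect library-to-library spread that may be technical.

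ATF4 is a transcription factor whose mRNA is translated preferentially when the initiation factor eIF2 is phosphorylated by kinases that sense amino acid shortage, unfolded protein in the endoplasmic reticulum, haem deficiency or double-stranded RNA. Growth factor signalling through mTORC1 can raise ATF4 protein as well. ATF4 binds, as a dimer with C/EBP or other bZIP proteins, to genes that import or make amino acids and attach them to tRNA, and to regulators such as DDIT3, TRIB3 and DDIT4. Because ATF4 is controlled largely in translation and protein turnover, the level of its mRNA does not show how much ATF4 protein a cell holds.

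TPM hold no read numbers, and sequencing depth is unknown. In LC-2/ad the lung lineage factor NKX2-1 stood at 140.1 to 141 TPM in treated and 105 to 114 TPM in parent libraries (called higher, 0.35), and the surfactant gene SFTPC was listed at 0 in all 6 libraries. The other lung markers were mixed. SFTPA2 was called higher (1.27), NAPSA was not called (0.08), and SFTPA1 and SFTPB were too low to be tested. SFTPB stood at 0.158 to 0.266 TPM in treated and 0.307 to 0.861 TPM in parent libraries. In TPC-1 the thyroid factor PAX8 stood at 256 to 285 TPM in treated and 154 to 230.0 TPM in parent libraries (called higher, 0.53, adjusted p = 0.0458), NKX2-1 was listed at 0, and TG was at or below 1.42 TPM. PAX8 and another thyroid factor, FOXE1, were also called higher in LC-2/ad, by 0.53 and 1.56, while FOXE1 was not called in TPC-1 (0.02). The summed level of 4 leukocyte markers was 6.87 to 8.18 TPM in treated and 8.78 to 11.4 TPM in parent LC-2/ad cells. Most of it was CD68, the 1 gene called lower (means of 6.38 and 9 TPM). The 3 endothelial markers summed to 3.61 to 5.08 TPM in treated and 2.68 to 3.12 TPM in parent LC-2/ad cells. The 4 fibroblast markers summed to 35.4 to 40.9 TPM and 28.8 to 34 TPM. Called higher was 1 gene of each list, CDH5 (means of 3.63 and 2.07 TPM) and LUM (2.12 and 0.495 TPM). Most of the fibroblast sum was COL1A1 (36.2 and 31.3 TPM), which was not called. In TPC-1 those lists summed to 18.7 to 24.6 TPM (leukocyte), 0.256 to 0.611 TPM (endothelial) and 24.3 to 31.3 TPM (fibroblast) in treated cells, against 16.9 to 18.5, 0.0246 to 0.233 and 28.4 to 30.9 TPM in parent cells. Transcripts of mitochondrial DNA took 14.013% to 14.952% of the TPM in treated and 9.723% to 9.825% in parent LC-2/ad libraries, and 5.833% to 6.82% in treated and 6.406% to 7.556% in parent TPC-1 libraries. DUSP6, a phosphatase that ERK signalling induces, fell by 3.54 on the log2 scale in LC-2/ad cells and by 1.00 in TPC-1 cells. MKI67, a marker of dividing cells, fell by 1.74 in LC-2/ad and had a log2 fold change of -0.05 in TPC-1 (adjusted p = 0.719). RET itself had a log2 fold change of 0.40 in LC-2/ad, where it was called higher, and of -0.03 in TPC-1. The mitochondrial share, MKI67 and some of the markers named above moved with treatment in LC-2/ad, PAX8 moved in TPC-1 as well, and their part in the results below was not tested. In RNA from a whole culture, fewer cells that carry a transcript and less of it per cell cannot be told apart.

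In LC-2/ad, treatment with selpercatinib went with lower levels of most of these genes, led by the serine and one-carbon enzymes, the amino acid transporters and the secreted proteins GDF15 and STC2. Of the 42 genes 26 fell, 4 rose and 12 did not pass the test (limma, two-sided, Benjamini-Hochberg adjusted p under 0.05 over all 14118 genes tested). Among all genes tested 55% passed, 30.6% higher and 24.4% lower. The median log2 fold change was -0.34 for the 42 genes and 0.07 for all genes tested. In TPC-1, 5 of the 42 rose, 1 fell and 36 did not pass, where 4.96% of 12825 genes passed, 3.75% higher and 1.21% lower. There the medians were 0.07 for the 42 genes and 0.05 for all genes. Fold changes are treated minus parent on the scale of log2(TPM + 1), which understates the change of genes at a few TPM. With median-of-ratios scaling, which moved the median of all LC-2/ad genes by -0.09, the 42 genes split into 3 higher and 29 lower, and all genes into 3442 and 4318 instead of 4319 and 3451. With mitochondrial genes removed they split into 7 and 21, and all genes into 5216 and 2833. For TPC-1, median-of-ratios scaling split all genes into 420 higher and 254 lower, instead of 481 and 155.

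**Figure D1:**
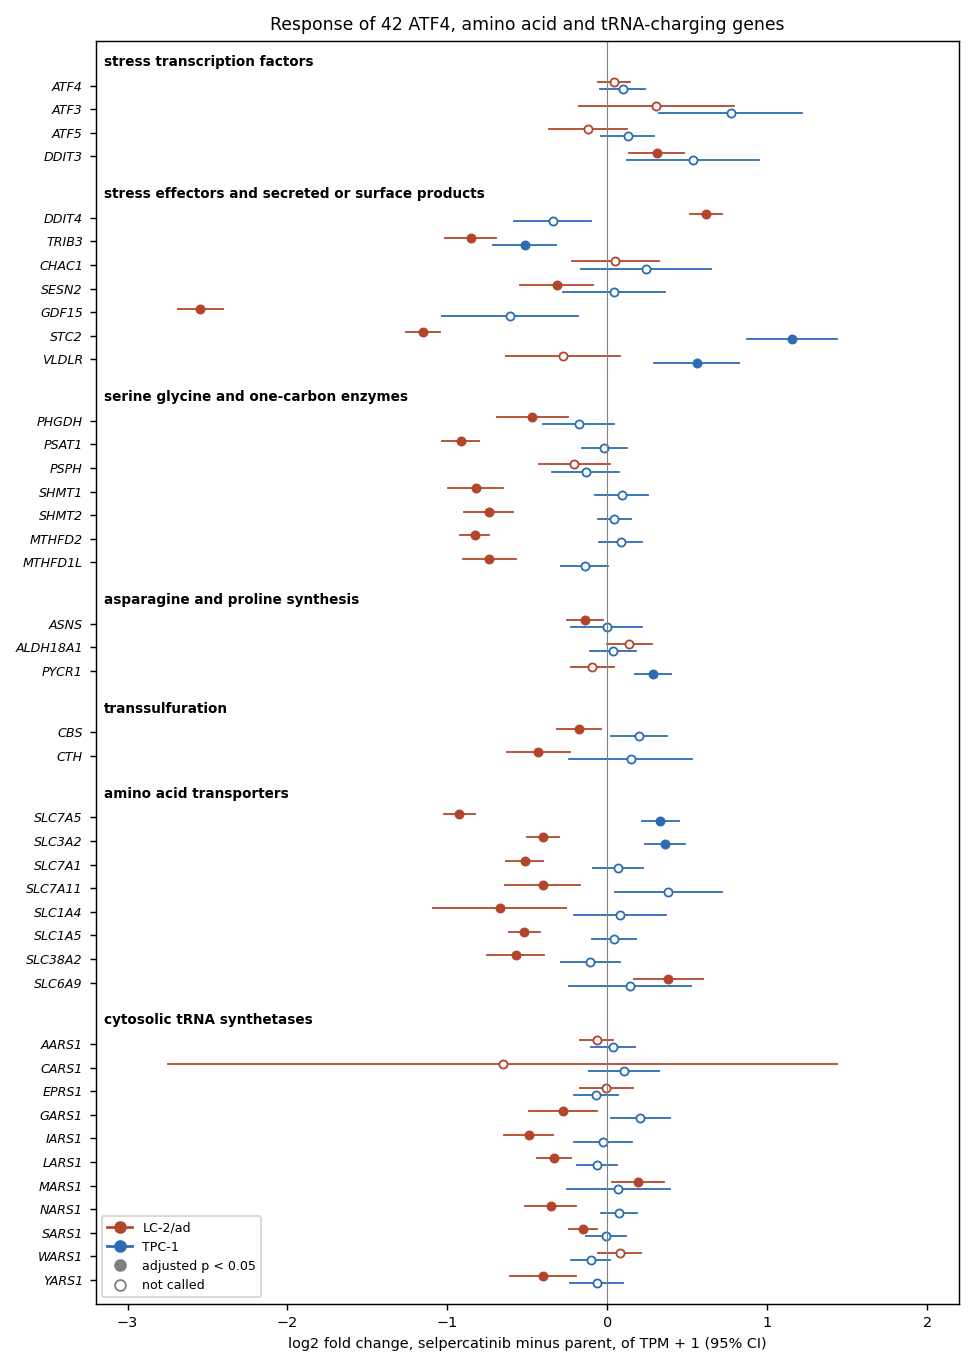
Log2 fold change (selpercatinib minus parent, of TPM + 1) of the 42 genes with 95% confidence intervals, grouped by role, for LC-2/ad (red, upper point) and TPC-1 (blue, lower point), from 3 against 3 libraries per line. Filled points passed the test; most filled LC-2/ad points lie left of 0, the lowest being GDF15 at -2.54, while the 6 filled TPC-1 points are TRIB3 on the left and STC2, VLDLR, PYCR1, SLC7A5 and SLC3A2 on the right.

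ATF4 binds a composite sequence, the C/EBP-ATF response element, whose core was searched here as TGATGNAA (N is any base) on both strands of RefSeq promoter windows running from 250 bases before to 50 bases after each annotated start (GRCh38.p14). Windows were found for 36 of the 42 genes, and none was used for PYCR1, YARS1, PSPH, LARS1, SHMT2 and SLC7A11. The letters were present in 14 of the 36 genes (38.9%) and in 1217 of 27305 genes with a window (4.46%). Counted by window, 16 of 58 windows of these genes (27.6%) and 1270 of 35116 windows in all (3.62%) held them. Genes with several starts have several windows, and neighbouring windows share bases. Among the 36, the letters were in 9 of 22 genes that fell in LC-2/ad (40.9%), in 1 of 4 that rose (25%) and in 4 of 10 that did not pass (40%). A match is a stretch of letters in a window, not a measured binding site. The 42 genes were chosen by name around ATF4, so their higher share follows the choice and is not a result of these data.

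The 5 stretches below belong to the genes that passed the test in LC-2/ad and hold the letters wholly before an annotated start. Each has 100 bases, 5′ to 3′ on the gene's own strand, with the match in capitals. In MTHFD1L (chr6:150866317-150866416, plus strand) the match begins at position -129 from 1 of its annotated starts. In SLC1A5 (chr19:46784852-46784951, minus strand) it begins at -97 from an annotated start that lies inside the gene's span of chr19:46774883-46788594. In ASNS (chr7:97872417-97872516, minus strand), a well-studied gene with such an element, it begins at -68. In IARS1 (chr9:92293698-92293797, minus strand) and GARS1 (chr7:30594778-30594877, plus strand) the element lies on the opposite strand, at -13 and -33, and reads as its reverse complement. The starts used for all 5 genes lie inside their GENCODE 29 spans. The stretches therefore lie wholly or partly within the genes.
MTHFD1L: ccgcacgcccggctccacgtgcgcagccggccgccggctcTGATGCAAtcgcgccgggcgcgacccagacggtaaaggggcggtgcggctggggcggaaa
SLC1A5: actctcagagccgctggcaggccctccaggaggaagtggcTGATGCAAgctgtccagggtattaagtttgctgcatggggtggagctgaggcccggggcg
IARS1: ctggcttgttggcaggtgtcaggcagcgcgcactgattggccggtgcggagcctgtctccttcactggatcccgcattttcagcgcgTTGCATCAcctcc
GARS1: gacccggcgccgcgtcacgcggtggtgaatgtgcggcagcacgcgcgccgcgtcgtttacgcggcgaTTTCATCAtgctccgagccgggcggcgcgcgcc
ASNS: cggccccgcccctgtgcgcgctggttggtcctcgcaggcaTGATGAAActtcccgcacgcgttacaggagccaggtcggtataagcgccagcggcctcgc
MTHFD1L and SLC1A5 carry TGATGCAA, ASNS carries TGATGAAA, and IARS1 and GARS1 carry TTGCATCA and TTTCATCA.

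Of the 4 stress transcription factors DDIT3 rose in LC-2/ad, and no other change in either line passed the test. ATF4 (ENSG00000128272, chr22:39519695-39522685, GRCh38) stood at 279.9, 259 and 257 TPM in treated LC-2/ad cells, against 251, 264 and 258 TPM in parent cells. In TPC-1 it stood at 279, 291 and 265 TPM in treated and 279, 244 and 260.2 TPM in parent libraries. Treated and parent values overlapped in both lines, and ATF4 was the most abundant of the 4 factors in every group. Its log2 fold change was 0.04 in LC-2/ad (95% CI -0.06 to 0.14, limma adjusted p = 0.432) and 0.10 in TPC-1 (-0.04 to 0.23, adjusted p = 0.418). The LC-2/ad value was -0.05 with median-of-ratios scaling and 0.12 with mitochondrial genes removed, where it passed the test (adjusted p = 0.0444).

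DDIT3 (ENSG00000175197, chr12:57516588-57521737), also called CHOP, is a bZIP factor that ATF4 induces and that promotes cell death under prolonged stress. It had 20.4, 22 and 18.7 TPM in treated LC-2/ad cells, against 16.4, 16 and 16.3 TPM in parent cells. All treated values lay above all parent values, and the rise of 0.31 ± 0.07 (SE) passed the limma test (adjusted p = 0.00869). TPC-1 cells held 9.98, 10.6 and 6.31 TPM in treated and 6.47, 5.56 and 5.29 TPM in parent libraries. The third treated library lay within the parent range, and the log2 fold change of 0.53 did not pass (adjusted p = 0.135). Without that library it was 0.74 and passed (adjusted p = 0.0249). DDIT3 lies on the strand opposite to MARS1 and overlaps it and a read-through gene, and whether reads were assigned by strand is not given in the sources used here, so its values are uncertain. SHMT1, SHMT2, MTHFD2, ASNS, SLC1A5, SLC6A9, LARS1, WARS1 and YARS1 also overlap a gene of the tables on the opposite strand, and their values carry the same limit.

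ATF3, a stress-induced repressor and activator, and ATF5, an activator translated under the same control as ATF4, did not pass in either line. ATF3 had log2 fold changes of 0.31 (LC-2/ad) and 0.77 (TPC-1, adjusted p = 0.0614), where treated libraries held 1.93, 2.75 and 2.02 TPM and parent libraries 1.12, 0.969 and 0.603 TPM. All treated TPC-1 values were higher, at levels close to the pseudocount of 1, and without a variance trend the change passed (adjusted p = 0.0479). ATF5 had log2 fold changes of -0.12 (LC-2/ad) and 0.13 (TPC-1). It overlaps NUP62 on the opposite strand.

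GDF15 showed the largest change of the 42 in LC-2/ad. GDF15 (ENSG00000130513, chr19:18374731-18389176) is a secreted hormone of the TGF-beta superfamily that stressed cells release and that signals loss of appetite through a receptor in the brainstem. Treated LC-2/ad libraries held 16, 16.7 and 14.7 TPM, against 94.3, 97.5 and 99.1 TPM in parent libraries. The groups were far apart, with a log2 fold change of -2.54 ± 0.06 (SE, limma adjusted p = 2.04e-07). In TPC-1 the gene was scarce, with 1.04, 0.83 and 0.554 TPM in treated and 1.65, 1.83 and 1.74 TPM in parent libraries. All treated TPC-1 values were below all parent values, but the log2 fold change of -0.61 did not pass (adjusted p = 0.102), except without a variance trend (adjusted p = 0.0442).

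STC2 (ENSG00000113739, chr5:173314713-173329503), a secreted glycoprotein induced by ATF4 that inhibits the protease PAPP-A, moved in opposite directions in the lines. It had 85.4, 89.6 and 94.9 TPM in treated LC-2/ad cells, against 201, 201 and 201 TPM in parent cells, a log2 fold change of -1.15 ± 0.05 (adjusted p = 1.08e-06). TPC-1 libraries had 63.4, 68.6 and 57.2 TPM in treated libraries, against 34.1, 25.3 and 24.7 TPM in parent libraries, a log2 fold change of 1.15 ± 0.12 (adjusted p = 0.00134). No treated value overlapped a parent value in either line, and the level in treated TPC-1 cells stayed below that in treated LC-2/ad cells. This was the 1 call among the 6 in TPC-1 that passed under every alternative tried.

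TRIB3 (ENSG00000101255, chr20:362835-397559), a pseudokinase that ATF4 and DDIT3 induce and that restrains ATF4 in turn, fell in both lines. Treated LC-2/ad libraries held 17.3, 16.9 and 15.2 TPM and parent libraries 31.4, 29.5 and 30.7 TPM (-0.86 ± 0.07, limma adjusted p = 3.09e-05). Treated TPC-1 libraries each held 12.4 TPM, against 17.1, 19.5 and 18.1 TPM in parent libraries (-0.52 ± 0.09, adjusted p = 0.0111). It was the 1 gene of the 42 called in the same direction in both lines. Without parent library 3 the TPC-1 call was lost (adjusted p = 0.0597).

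DDIT4, which codes for REDD1, an inhibitor of mTORC1, rose in LC-2/ad. Its values are given in full because it had the largest rise of the 42 there, a choice made after its values were seen. It had 144, 147 and 156 TPM in treated LC-2/ad cells, against 98.4, 94.5 and 97.9 TPM in parent cells (0.62 ± 0.04, limma adjusted p = 1.73e-05). TPC-1 cells held 57.4, 52 and 67 TPM in treated and 84.2, 70.6 and 69.2 TPM in parent libraries. All treated TPC-1 values were lower, but the log2 fold change of -0.34 did not pass (adjusted p = 0.106).

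VLDLR (ENSG00000147852, chr9:2621834-2660053), a lipoprotein receptor that ATF4 induces in hepatocytes, had 31.3, 27.4 and 26.2 TPM in treated TPC-1 libraries, against 22.3, 18.2 and 16.5 TPM in parent libraries. All treated values lay above the parent values and the rise of 0.56 ± 0.12 passed (limma adjusted p = 0.0322), but the call was lost without a filter on low values or a variance trend, and without parent library 2 or 3 or treated library 1 or 2. In LC-2/ad VLDLR held 0.95 to 1.13 TPM in treated and 1.4 to 1.52 TPM in parent libraries, with a log2 fold change of -0.28 that did not pass. SESN2, a stress-induced inhibitor of mTORC1 and leucine sensor, fell by 0.32 in LC-2/ad (adjusted p = 0.0268) and had a log2 fold change of 0.04 in TPC-1. The SESN2 call was lost without any 1 of parent libraries 1 and 2 and treated libraries 2 and 3, and with mitochondrial genes removed (adjusted p = 0.0616) or no filter on low values (0.0565). CHAC1, which degrades glutathione, stood between 1.51 and 3.92 TPM over the 12 libraries and did not pass in either line. Of these 7 effectors 4 fell and 1 rose in LC-2/ad, where 24.4% of all genes tested were called lower and 30.6% higher. TPC-1 gave 2 rises and 1 fall among them, where 3.75% of all genes were called higher and 1.21% lower.

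**Figure D2:**
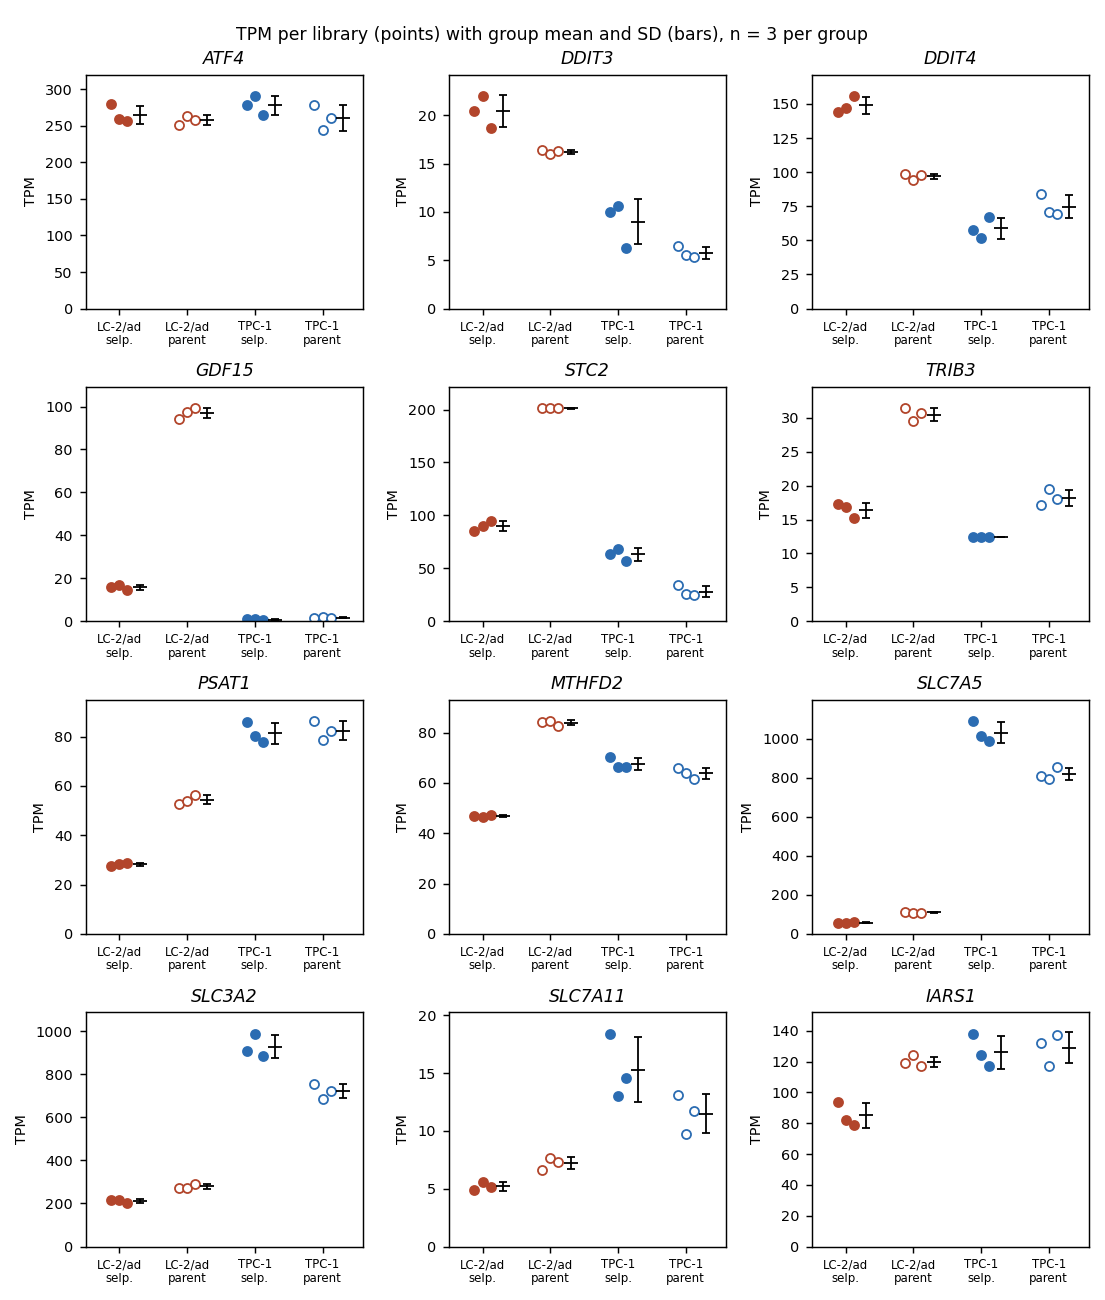
TPM of 12 genes in each library, with selpercatinib libraries as filled and parent libraries as open points, LC-2/ad in red and TPC-1 in blue, and a bar for the group mean and SD (n = 3). ATF4 overlaps between treated and parent libraries in both lines, GDF15, PSAT1 and MTHFD2 are lower in treated than in parent LC-2/ad cells, and STC2, SLC7A5 and SLC3A2 are lower in treated LC-2/ad cells and higher in treated TPC-1 cells.

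Serine and one-carbon enzymes fell together in LC-2/ad. These enzymes make serine from a glycolytic intermediate and pass its carbon to folate for the synthesis of purines, thymidylate and formate. Of 7 members 6 fell in LC-2/ad with a median log2 fold change of -0.74, where 24.4% of all genes tested were called lower. None of the 7 passed in TPC-1, adjusted or at an unadjusted p under 0.05 (median -0.02). Only 4.96% of all genes passed the adjusted test there, so no call among 7 is near that share. At an unadjusted p under 0.05 were 2753 of all 12825 genes in TPC-1. PSAT1 (ENSG00000135069, chr9:78297143-78330093), the transaminase of the second step, had 27.6, 28.4 and 28.9 TPM in treated LC-2/ad cells, against 52.8, 53.8 and 56.4 TPM in parent cells. The groups were well separated (-0.92 ± 0.05, limma adjusted p = 4.77e-06). In TPC-1 it held 85.9, 80.1 and 78 TPM in treated and 86.3, 78.7 and 82.2 TPM in parent libraries, which overlapped (-0.02, 95% CI -0.16 to 0.12).

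MTHFD2 (ENSG00000065911, chr2:74198562-74217565), the mitochondrial folate dehydrogenase and cyclohydrolase, had 46.8, 46.3 and 47.1 TPM in treated LC-2/ad cells, against 84.3, 84.6 and 82.8 TPM in parent cells (-0.83 ± 0.04, limma adjusted p = 2.61e-06). In TPC-1 it held 70.4, 66.3 and 66.3 TPM in treated and 65.8, 64.1 and 61.5 TPM in parent libraries. The TPC-1 groups did not overlap, but the difference of 0.08 did not pass (adjusted p = 0.46). SHMT1 (ENSG00000176974, chr17:18327860-18363563), the cytosolic serine hydroxymethyltransferase, had 17.2, 19.7 and 20 TPM in treated LC-2/ad cells, against 35.7, 32.9 and 34.2 TPM in parent cells (-0.82 ± 0.07, adjusted p = 5.51e-05). In TPC-1 it held 62.7, 70.9 and 64.6 TPM in treated and 57.5, 65.1 and 63.5 TPM in parent libraries, which overlapped.

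The mitochondrial hydroxymethyltransferase SHMT2 fell by 0.74 in LC-2/ad, as did MTHFD1L, the mitochondrial formate-producing enzyme, by 0.74, and PHGDH, the first enzyme of serine synthesis, by 0.47. PSPH, the phosphatase of the last step, had a log2 fold change of -0.21 in LC-2/ad (adjusted p = 0.102) and of -0.13 in TPC-1. The pseudogene PSPHP1 was listed at group means of 31.5 to 39.5 TPM, close to those of PSPH itself, so reads may be split between them and both values are uncertain. The cytosolic 3-function enzyme MTHFD1, from the list of other enzymes, fell as well in LC-2/ad, with 103, 97.8 and 102 TPM in treated and 198, 188 and 191 TPM in parent libraries (-0.92 ± 0.04, limma adjusted p = 1.43e-06).

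Asparagine and proline synthesis moved less. ASNS (ENSG00000070669, chr7:97852118-97872542), asparagine synthetase, had 49.9, 48.8 and 46.9 TPM in treated LC-2/ad cells, against 53.5, 52 and 55.2 TPM in parent cells. Every treated value was lower, by a log2 fold change of -0.14 ± 0.05 that just passed (limma adjusted p = 0.0419). The call was lost when any 1 of the 6 libraries was left out, and with mitochondrial genes removed the value was -0.06 (adjusted p = 0.302). It was also lost with no variance trend (0.0706). In TPC-1 ASNS held 18.1, 17.4 and 15.4 TPM in treated and 17, 18.4 and 15.7 TPM in parent libraries, which overlapped fully (0.00, 95% CI -0.23 to 0.22).

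PYCR1 (ENSG00000183010, chr17:81932384-81942412), the mitochondrial enzyme of the last step of proline synthesis, had 203, 207 and 217 TPM in treated TPC-1 libraries, against 166, 176 and 171 TPM in parent libraries (0.29 ± 0.05, limma adjusted p = 0.0133). In LC-2/ad it held 221, 234 and 259 TPM in treated and 246, 259 and 256 TPM in parent libraries, which overlapped (-0.09, adjusted p = 0.203). The TPC-1 call was lost with median-of-ratios scaling (0.23, adjusted p = 0.101), with no variance trend (0.087) and without parent library 3 (0.0698). ALDH18A1, the enzyme of the first step, had log2 fold changes of 0.14 in LC-2/ad (adjusted p = 0.0902) and 0.04 in TPC-1.

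The transsulfuration pair, which turns homocysteine into cysteine, fell in LC-2/ad and did not pass in TPC-1. Among all genes tested 24.4% were called lower in LC-2/ad, and 4.96% passed in TPC-1. CTH (ENSG00000116761, chr1:70411218-70439851), cystathionine gamma-lyase, had 9.38, 9.05 and 9.59 TPM in treated LC-2/ad cells, against 11.7, 13.5 and 13.7 TPM in parent cells (-0.43 ± 0.09, limma adjusted p = 0.00341). In TPC-1 it held 4.03, 3.83 and 2.61 TPM in treated and 3.14, 2.76 and 3.18 TPM in parent libraries, which overlapped. CBS (ENSG00000160200, chr21:43053191-43076943), cystathionine beta-synthase, had 27.2, 26.1 and 28.4 TPM in treated LC-2/ad cells, against 32.1, 30.7 and 29.9 TPM in parent cells (-0.18 ± 0.06, adjusted p = 0.0322). It held 36.4, 37.4 and 33.2 TPM in treated and 33, 29.6 and 30.3 TPM in parent TPC-1 libraries (0.20, adjusted p = 0.182). All treated CBS values were lower than the parent ones in LC-2/ad and higher in TPC-1. The LC-2/ad call for CBS was lost with mitochondrial genes removed (adjusted p = 0.176) and without parent library 1 or 2 or treated library 1 or 2. A near copy of CBS (ENSG00000274276) was listed at group means of up to 2.49 TPM, so the CBS values are uncertain.

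Of 8 amino acid transporters 7 fell and 1 rose in LC-2/ad, where 24.4% of all genes tested were called lower and 30.6% higher. In TPC-1 2 of the 8 rose, the partners of the large neutral amino acid transporter, where 3.75% of all genes were called higher. SLC7A5 (ENSG00000103257, chr16:87830023-87869488), which codes for LAT1, pairs with the heavy chain SLC3A2 (ENSG00000168003, chr11:62856102-62888875), known as CD98, to import leucine and other large neutral amino acids. SLC7A5 had 56.6, 57 and 58.8 TPM in treated LC-2/ad cells, against 113, 109 and 108 TPM in parent cells (-0.93 ± 0.04, limma adjusted p = 1.78e-06). TPC-1 libraries had 1090.1, 1012 and 989.8 TPM in treated and 809.6, 793 and 854 TPM in parent libraries (0.33 ± 0.05, adjusted p = 0.00812). Treated and parent values were separate in both lines, in opposite directions, and TPC-1 held the higher level throughout.

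SLC3A2 had 216, 215 and 202 TPM in treated LC-2/ad cells, against 273, 272 and 292 TPM in parent cells (-0.40 ± 0.04, limma adjusted p = 0.000148). In TPC-1 it had 908, 988 and 885 TPM in treated libraries, against 753, 687 and 724 TPM in parent libraries (0.36 ± 0.06, adjusted p = 0.00772). The directions matched those of SLC7A5. In TPC-1 both calls were lost when genes of low level were kept in the fit (adjusted p = 0.0558 for SLC7A5 and 0.0569 for SLC3A2) and without a variance trend (0.0747 and 0.0688).

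SLC7A11 (ENSG00000151012, chr4:138164097-138242349), or xCT, pairs with SLC3A2 as well and imports cystine in exchange for glutamate. It had 4.86, 5.61 and 5.15 TPM in treated LC-2/ad cells, against 6.66, 7.69 and 7.31 TPM in parent cells (-0.41 ± 0.10, limma adjusted p = 0.0101). TPC-1 libraries had 18.4, 13 and 14.6 TPM in treated and 13.1, 9.73 and 11.7 TPM in parent libraries. The TPC-1 values overlapped at the edge, and the log2 fold change of 0.38 did not pass (adjusted p = 0.179).

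SLC1A4 (ENSG00000115902, chr2:64988477-65023865), which carries alanine, serine and cysteine, had 4.18, 3.05 and 3.14 TPM in treated LC-2/ad cells, against 7.64, 6.23 and 4.65 TPM in parent cells (-0.67 ± 0.18, limma adjusted p = 0.0139). SLC38A2 (ENSG00000134294, chr12:46358189-46372867), or SNAT2, a sodium-coupled transporter of small neutral amino acids that starvation induces, had 95.7, 81.7 and 77 TPM in treated LC-2/ad cells, against 125, 125 and 129 TPM in parent cells (-0.57 ± 0.08, adjusted p = 0.000428). Treated values of both genes lay below all parent values, with a wider spread for SLC1A4. In TPC-1 SLC1A4 held 6.12, 5.1 and 5.05 TPM in treated and 5.19, 4.71 and 5.32 TPM in parent libraries, and SLC38A2 held 85.5, 83.9 and 84.8 TPM in treated and 103, 81.8 and 90.3 TPM in parent libraries. Both pairs of groups overlapped.

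The glutamine carrier SLC1A5 (ASCT2) and the cationic amino acid carrier SLC7A1 (CAT1) each fell by 0.52 in LC-2/ad. SLC6A9, the glycine transporter GLYT1, rose there by 0.38 (adjusted p = 0.0097), at 8.67 to 10.1 TPM in treated and 6.65 to 7.45 TPM in parent libraries. None of these passed in TPC-1. Summed over the 8 transporters, the level was 538.3 to 560.5 TPM in treated and 781 to 805.9 TPM in parent LC-2/ad libraries, and 2168.2 to 2314.5 TPM in treated and 1766.5 to 1879.9 TPM in parent TPC-1 libraries. In TPC-1 most of the sum was SLC7A5 and SLC3A2.

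Cytosolic tRNA synthetases attach each amino acid to its tRNA. Of 11 members 6 fell, 1 rose and 4 did not pass in LC-2/ad, with a median log2 fold change of -0.28. Among all 14118 genes tested there 55% were called, so the total of 7 calls among 11 is near that share. The 6 falls stand against 24.4% of all genes tested that were called lower. None passed in TPC-1 (median -0.01), where 4.96% of all genes passed the adjusted test. At an unadjusted p under 0.05 was 1 of the 11, against 2753 of all 12825 genes in TPC-1. IARS1 (ENSG00000196305, chr9:92210207-92293756), for isoleucine, had 94, 82.1 and 79 TPM in treated LC-2/ad cells, against 119, 124 and 117 TPM in parent cells (-0.49 ± 0.07, limma adjusted p = 0.000483). YARS1 (ENSG00000134684, chr1:32775237-32818153), for tyrosine, had 56.6, 72.3 and 61.5 TPM in treated and 88.6, 83.1 and 79.7 TPM in parent LC-2/ad libraries (-0.40 ± 0.09, adjusted p = 0.00589). NARS1 (ENSG00000134440, chr18:57600656-57622213), for asparagine, had 65.7, 66.8 and 59.2 TPM in treated and 77.1, 80.3 and 88.5 TPM in parent LC-2/ad libraries (-0.35 ± 0.07, adjusted p = 0.00319). Treated values of all 3 genes lay below all parent values. In TPC-1 IARS1 held 138, 124 and 117 TPM in treated and 132, 117 and 137 TPM in parent libraries. YARS1 held 92.3, 90 and 78.2 TPM in treated and 90.3, 87.5 and 94.5 TPM in parent TPC-1 libraries. NARS1 held 226, 214 and 213 TPM in treated and 212, 201 and 207 TPM in parent TPC-1 libraries. Groups overlapped for IARS1 and YARS1, while treated NARS1 values were all slightly higher (0.07, adjusted p = 0.435).

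Smaller falls in LC-2/ad were called for LARS1 (-0.34), GARS1 (-0.28) and SARS1 (-0.15), the synthetases of leucine, glycine and serine. MARS1, for methionine, rose by 0.19 (adjusted p = 0.0479), with overlapping values of 132 to 144 TPM in treated and 114 to 135 TPM in parent libraries. The MARS1 call was lost with median-of-ratios scaling (0.10, adjusted p = 0.308), with no filter on low values (0.104), with no variance trend (0.0971) and without parent library 1 or 2 or treated library 1 or 3, and its locus overlaps DDIT3. The GARS1 call was lost without a filter on low values (adjusted p = 0.0843) or a variance trend (0.068) and without parent library 2 or 3 or treated library 1 or 2, and with mitochondrial genes removed the calls of GARS1 and SARS1 were lost (adjusted p = 0.1 and 0.117). AARS1, EPRS1 and WARS1 did not pass, at -0.07, -0.01 and 0.08. AARS1 passed as lower with median-of-ratios scaling (-0.16, adjusted p = 0.0145) and WARS1 as higher with mitochondrial genes removed (0.15, 0.0479). For CARS1, the cysteine synthetase, the LC-2/ad libraries did not resemble each other, with 0.115, 2.07 and 7.59 TPM in treated and 1.67, 15.9 and 1.54 TPM in parent libraries. Its 95% CI in LC-2/ad ran from -2.75 to 1.44, while in TPC-1 it held a steady 29.4 to 37.9 TPM.

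Lists of other genes of the same pathways also held more falls than rises in LC-2/ad, except the other transporters. Of 13 other cytosolic synthetases and scaffold proteins 10 fell and 2 rose (median -0.38), and of 17 mitochondrial synthetases 7 fell and 1 rose (median -0.14). Among all genes tested 55% were called, 24.4% lower, so the 8 calls among 17 mitochondrial synthetases are below that share. The beta subunit of the phenylalanine enzyme, FARSB, had the largest fall of the first list (-0.86 ± 0.08), followed by the scaffold protein EEF1E1 (-0.80 ± 0.06) and the alpha subunit FARSA (-0.60 ± 0.06). QARS1, for glutamine, and TARS3, a threonine enzyme, rose by 0.38 and 0.37. Among mitochondrial synthetases MARS2 and YARS2 fell by 0.68 and 0.52, and HARS2 rose by 0.18. In TPC-1 none of 12 tested cytosolic genes passed, and 1 of 16 mitochondrial synthetases rose (CARS2, 0.25, limma adjusted p = 0.0434). Of all genes tested in that line 4.96% passed. At an unadjusted p under 0.05 were 2 of the 12 cytosolic genes and 2753 of all 12825 genes. VARS1 and VARS2, both for valine, were listed at 0 in all 6 TPC-1 libraries and were not tested there. VARS1 serves protein synthesis in every cell, so its 0 cannot be read as absence.

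**Figure D3:**
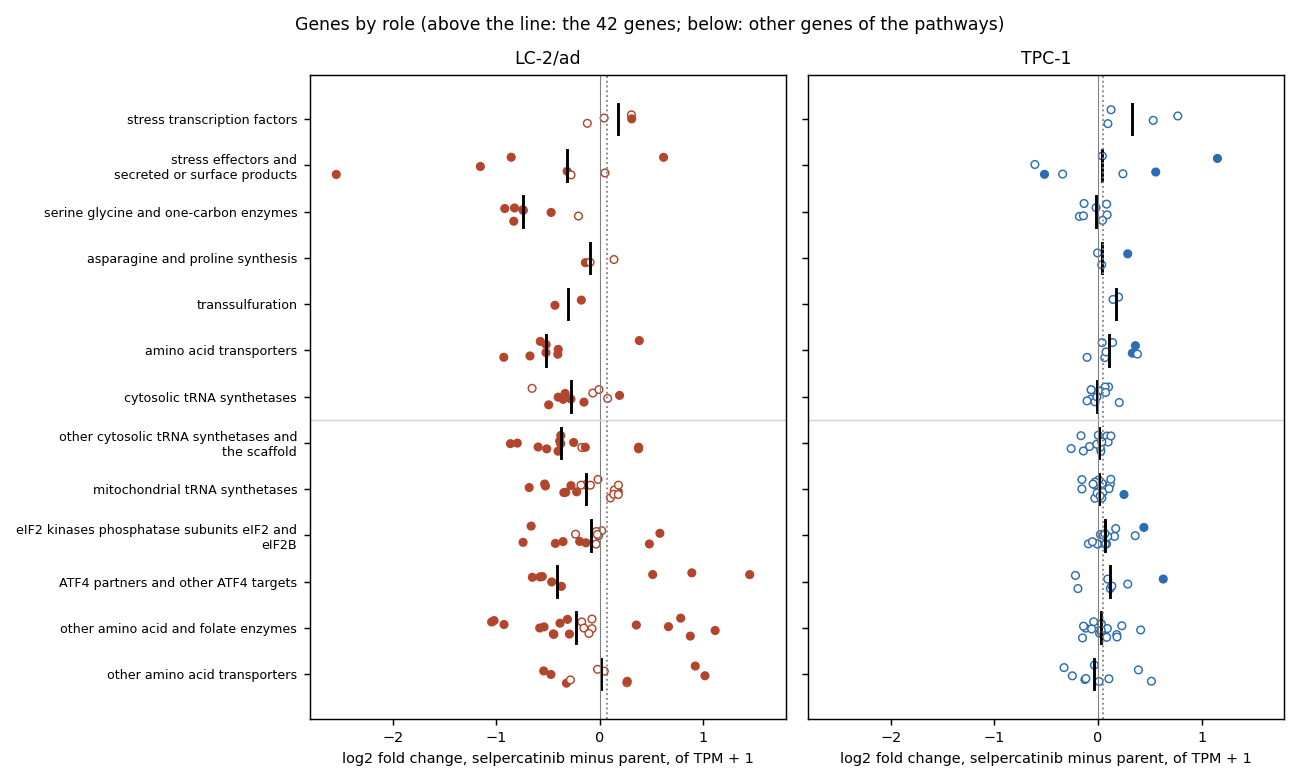
Log2 fold change (selpercatinib minus parent, of TPM + 1) of each tested gene by list, in LC-2/ad (left) and TPC-1 (right); filled points passed the test, black bars are list medians and the dotted line is the median of all genes tested (0.07 and 0.05). The 42 genes stand above the grey line, with their lowest list median in LC-2/ad at -0.74 for the serine, glycine and one-carbon enzymes.

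Upstream of ATF4, the eIF2 kinases, phosphatase subunits and factors gave 6 falls and 2 rises among 14 genes in LC-2/ad (median -0.08), where 55% of all genes were called, so the count of 8 is near the background. PPP1R15A, or GADD34, the stress-induced subunit that directs dephosphorylation of eIF2, rose in both lines. This gene was the 1 call among the 14 in TPC-1, where 4.96% of all genes passed. It had 54.8, 55.6 and 53.7 TPM in treated LC-2/ad cells, against 38.3, 39.6 and 39 TPM in parent cells (0.48 ± 0.04, limma adjusted p = 7.01e-05). In TPC-1 it had 34, 35.2 and 31.7 TPM in treated libraries, against 26.2, 23 and 24.2 TPM in parent libraries (0.44 ± 0.08, adjusted p = 0.0152). All treated values lay above all parent values in both lines. EIF2AK3, or PERK, the kinase of the endoplasmic reticulum, rose by 0.58 in LC-2/ad and had a log2 fold change of 0.36 in TPC-1 (adjusted p = 0.151). EIF2S1, the eIF2 subunit that is phosphorylated, fell by 0.74 in LC-2/ad, EIF2B3 of the exchange factor by 0.66 and EIF2S2 by 0.43.

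Among ATF4 partners and other targets 5 of 8 tested genes fell and 3 rose in LC-2/ad (median -0.42), and 1 of 7 rose in TPC-1. Of all genes tested 24.4% were called lower and 30.6% higher in LC-2/ad, and 3.75% higher in TPC-1. CEBPB, a C/EBP factor that pairs with ATF4, had opposite calls in the lines, with 30.2, 29.2 and 29.7 TPM in treated and 49.5, 46.5 and 45.8 TPM in parent LC-2/ad libraries (-0.65 ± 0.05, limma adjusted p = 3.22e-05). In TPC-1 it had 12, 13.5 and 12.1 TPM in treated and 7.82, 8.01 and 7.38 TPM in parent libraries (0.63 ± 0.10, adjusted p = 0.0085). No values overlapped in either line, and the response differed by -1.28 between the lines (adjusted p = 7.12e-07). The tRNA exporter XPOT fell by 0.58 and the translation inhibitor EIF4EBP1 by 0.56 in LC-2/ad, where KLHL24 rose by 1.45, the bZIP repressor JDP2 by 0.89 and SESN3 by 0.51. KLHL24 held 31, 33.7 and 32.2 TPM in treated and 10.2, 12.9 and 10.6 TPM in parent LC-2/ad libraries.

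Other amino acid and folate enzymes fell in 10 and rose in 5 of 20 tested cases in LC-2/ad (median -0.23). Among all genes tested there 24.4% were called lower and 30.6% higher. Besides MTHFD1, ornithine aminotransferase OAT and aspartate aminotransferase GOT1 fell the most, by 1.04 and 1.02. The alanine aminotransferase GPT rose by 0.87 and PRODH, the first enzyme of proline breakdown, by 0.78. Other transporters gave 3 rises (SLC7A8, 1.02, SLC1A3, 0.92, and SLC7A6, 0.27) and 3 falls (SLC36A4, -0.54, SLC6A14, -0.47, and SLC38A1, -0.32) among 10 tested genes. That total is near the 55% called among all genes. In TPC-1 none of 16 enzymes and 9 transporters passed the limma test, which 4.96% of all genes passed there. At an unadjusted p under 0.05 were 3 and 4 of them, and 2753 of all 12825 genes. PYCR3 was not analysed here.

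Whether a gene responded differently in the lines was tested as the difference of its log2 fold changes, LC-2/ad minus TPC-1, in a fit of all 12 libraries. Of the 42 genes 24 had a lower and 1 a higher response in LC-2/ad, and 17 did not pass, where 36.6% of 11996 genes passed, 14.4% higher and 22.2% lower. The median difference was -0.40 for the 42 genes and -0.04 for all genes tested. With mitochondrial genes removed all genes split into 2302 higher and 2066 lower, instead of 1733 and 2660. Serine and one-carbon enzymes differed in 5 of 7 cases, transporters in 7 of 8, tRNA synthetases in 5 of 11 and effectors in 5 of 7. Transsulfuration enzymes differed in 2 of 2, asparagine and proline enzymes in 1 of 3 and stress transcription factors in 0 of 4. None of those 4 factors had an unadjusted p under 0.05 either, where 5504 of all 11996 genes did.

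STC2 differed the most, by -2.31 ± 0.15 (SE, limma adjusted p = 1.7e-07), since its fall in LC-2/ad stood against a rise in TPC-1. GDF15 followed at -1.93 ± 0.15 and SLC7A5 at -1.26 ± 0.06. GDF15 lies near 1 TPM in TPC-1, and over the alternatives tried its difference ranged from -2.08 to -1.55. PSAT1, MTHFD2 and SHMT1 differed by -0.90, -0.91 and -0.91, and in these the TPC-1 change was close to 0. DDIT4 was the 1 gene with a higher response in LC-2/ad (0.96 ± 0.13, adjusted p = 7.23e-05). Of the 26 genes that fell in LC-2/ad, 3 rose in TPC-1 (STC2, SLC7A5 and SLC3A2), 1 fell (TRIB3) and 22 did not pass there. Of all genes tested in TPC-1 only 4.96% passed, 3.75% higher and 1.21% lower. Not passing in TPC-1 was therefore common to most genes. TRIB3, called lower in both lines, fell more in LC-2/ad (-0.34 ± 0.10, adjusted p = 0.0206), a difference that was lost with mitochondrial genes removed (adjusted p = 0.0691) and without LC-2/ad parent library 1 or treated library 3. CTH and YARS1 differed by -0.58 and -0.34, calls that were lost on leaving out 6 and 9 of the 12 libraries, 1 at a time. The YARS1 difference was also lost with no filter on low values (adjusted p = 0.0788), with mitochondrial genes removed (0.123) and with no variance trend (0.0738), and the LARS1 difference of -0.27 with mitochondrial genes removed (-0.18, 0.0591). CBS and MARS1, uncertain above, and GARS1 had differences of -0.38, 0.12 and -0.48, of which that of MARS1 did not pass. PHGDH and SESN2, which fell in LC-2/ad, did not pass in the difference (-0.29 and -0.36, adjusted p = 0.15 and 0.0947). Without TPC-1 treated library 3 both passed (-0.40 and -0.43, adjusted p = 0.0392 and 0.0497), as did DDIT3 (-0.44, 0.0261), and SESN2 passed with no variance trend (0.0375).

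Levels in parent cells are given as a description with no test, since they stand in 2 separate tables. In LC-2/ad parent cells the highest of the 42 were SLC3A2 at 279 ± 10.9 TPM (mean ± SD, n = 3), ATF4 at 258 ± 6.49, PYCR1 at 254 ± 6.63, SLC1A5 at 221 ± 6.41 and WARS1 at 212 ± 12.2. ATF4 and PYCR1 lay within their spread of each other, as did SLC1A5 and WARS1. In TPC-1 parent cells SLC7A5 at 819 ± 31.6 and SLC3A2 at 721 ± 32.9 stood far above ATF4 at 261 ± 17.5 and SHMT2 at 254 ± 3.39, and the last 2 were within their spread. GDF15 had rank 16 in LC-2/ad (97 ± 2.42 TPM) and rank 40 in TPC-1 (1.74 ± 0.09 TPM). VLDLR was lowest in LC-2/ad (1.44 ± 0.07 TPM) and held 19 ± 2.99 TPM in TPC-1. ASNS stood at 53.6 ± 1.6 TPM in LC-2/ad and 17 ± 1.35 TPM in TPC-1, while PHGDH stood at 64.7 ± 4.59 and 168 ± 11 TPM.

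**Figure D4:**
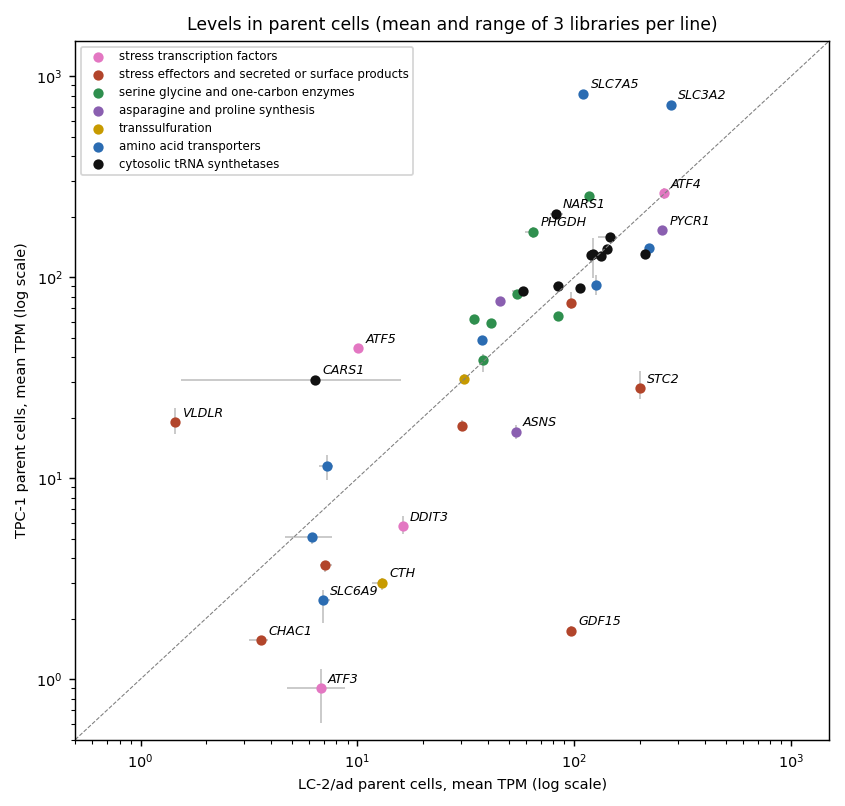
Mean TPM of the 42 genes in parent LC-2/ad cells (x axis) and parent TPC-1 cells (y axis), both on log scales, coloured by role; bars span the 3 libraries and the dashed line marks equal values. ATF4 lies on the line, SLC7A5 (110.2 and 819 TPM) and VLDLR (1.44 and 19 TPM) lie above it, and GDF15 (97 and 1.74 TPM) and STC2 (201 and 28 TPM) below it.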

How the data were processed

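Each table held the authors' TPM for every gene of 1 line, and each deposited column summed to 1000000, so the unit is a share within a library. Bcl2fastq 2.20.0, Salmon and GRCh38 appear in the submitters' processing notes without their roles. The annotation, the summing of transcripts to genes and the use of strand are not given in the sources used here. Without read numbers, counting error could not be computed.

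Groups came from the sample titles. limma 3.58.1 (R 4.3.3, a linear fit with eBayes and a variance trend) tested treated against parent libraries of each line on log2(TPM + 1), over genes with a mean of at least 1 TPM, two-sided, with Benjamini-Hochberg adjustment over all genes tested and a threshold of 0.05. The lines were compared as the difference of their log2 fold changes in a fit of 12 libraries, over genes with that mean in each line. SEs are limma's moderated ones. The fits were tested on simulated data. Of 37247 identifiers 34436 (92.5%) had a symbol, and coordinates are from GENCODE 29. Promoter windows are RefSeq's.

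The 42 genes, the other lists and the rules were chosen with earlier results of these data known. Values per library are given for ATF4, DDIT3, ASNS, SLC7A11 and, per role and line, up to 3 called genes with the largest change. From the other lists up to 3 called genes per direction and line are named, apart from some that are not reported here. Alternatives were a pseudocount of 0.1 or 5, no filter or at least 5 TPM, median-of-ratios scaling, mitochondrial genes removed, no variance trend, a replicate block, and each library left out. Tables were summarised and drawn with Python 3.11.15, pandas 2.3.3 and matplotlib 3.10.9. No column was left out.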

Additional observations from a re-analysis of the deposited data

Results flagged for a closer look

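For 25 of the 42 genes a test of the difference itself (limma, 12 libraries, adjusted over all genes tested) found that the response to selpercatinib was not the same in the lines. Of all 11996 genes tested 36.6% passed, 14.4% higher and 22.2% lower. Differences are log2 fold change in LC-2/ad minus that in TPC-1. DDIT4 had the 1 positive difference, at 0.96. Among effectors STC2 had -2.31, GDF15 -1.93, VLDLR -0.84 and TRIB3 -0.34. The serine and one-carbon enzymes MTHFD2, SHMT1, PSAT1, SHMT2 and MTHFD1L had -0.91, -0.91, -0.90, -0.79 and -0.60, PYCR1 had -0.38, and the transsulfuration enzymes CTH and CBS had -0.58 and -0.38.

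The transporters SLC7A5, SLC7A11, SLC3A2, SLC1A4, SLC7A1, SLC1A5 and SLC38A2 had -1.26, -0.79, -0.76, -0.75, -0.58, -0.56 and -0.47. The tRNA synthetases GARS1, IARS1, NARS1, YARS1 and LARS1 had -0.48, -0.46, -0.43, -0.34 and -0.27. The calls of TRIB3, LARS1 and YARS1 were lost with mitochondrial genes removed, and those of TRIB3, CTH and YARS1 without some single libraries. MKI67 and the mitochondrial share also moved in LC-2/ad, and their part in these differences was not tested. Line, tissue of origin and medium cannot be told apart.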

How the results depend on the processing

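Calls among the 42 genes numbered 30 in LC-2/ad and 25 to 32 over the alternatives (25 to 29 with 1 library left out), and 25 for the difference between the lines, 21 to 28 over the alternatives (23 to 28). In TPC-1 the 6 calls became 3 without a filter on low values, and 3 to 7 with 1 library left out, with 3 without parent replicate 3. Over all genes 636 were called in TPC-1, against 272 without the filter and 356 without a variance trend, and calls ranged from 292 to 815 with 1 library left out (337 without parent library 2, 292 without parent library 3, 335 and 339 without treated library 1 or 2). They ranged from 6888 to 7226 in LC-2/ad and from 3895 to 4273 for the difference. Parent library 1 of TPC-1 lay nearer the treated libraries on the main axis of variation, and without it 6 of the 42 and 815 of all genes were called. Of the 30, 6 and 25 calls, 24 in LC-2/ad, 1 in TPC-1 and 21 for the difference held under every alternative that could be run on them.

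Signs turned in genes that had not passed. With median-of-ratios scaling the log2 fold changes were -0.0529 for ATF4, -0.0251 for CHAC1 and -0.0186 for WARS1 in LC-2/ad, and -0.0047 for SESN2, -0.0140 for SHMT2, -0.0212 for ALDH18A1, -0.0175 for SLC1A5 and -0.0212 for AARS1 in TPC-1. With mitochondrial genes removed they were 0.0104 for AARS1 and 0.0699 for EPRS1 in LC-2/ad, and the difference was 0.0354 for ATF4 and 0.0147 for PSPH. Leaving out 1 library gave, in LC-2/ad, -0.0224 to 0.0896 for CHAC1, -1.39 to 0.25 for CARS1 and -0.0843 to 0.0335 for EPRS1. In TPC-1 it gave -0.0258 to 0.12 for SESN2, -0.0592 to 0.0143 for PSAT1, -0.0581 to 0.0615 for ASNS, -0.0067 to 0.0700 for ALDH18A1, -0.0132 to 0.0705 for AARS1, -0.0951 to 0.0241 for IARS1, -0.11 to 0.21 for MARS1, -0.0379 to 0.0244 for SARS1 and -0.11 to 0.0068 for YARS1. For the difference it gave -0.16 to 0.0331 for PSPH, -1.49 to 0.15 for CARS1, -0.0128 to 0.11 for EPRS1 and -0.0215 to 0.30 for MARS1.

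Other calls were gained under 1 alternative or more. In LC-2/ad these were VLDLR with no variance trend (limma adjusted p = 0.00874), PSPH and PYCR1 with median-of-ratios scaling (0.0276 and 0.03), ALDH18A1 with mitochondrial genes removed (0.0179), and each of PSPH, PYCR1 and ALDH18A1 without 1 treated library (0.0213, 0.0242 and 0.0274). For the difference WARS1 passed with mitochondrial genes removed (0.0176) and without LC-2/ad parent library 2 (0.0489), ATF5 without LC-2/ad treated library 3 (0.0415) and SARS1 without TPC-1 parent library 2 (0.0409).

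Same-numbered libraries did not deviate together (correlations of -0.048 to 0.054), so the numbers do not pair them. With the replicate number as a block, 27 genes were called in LC-2/ad, 6 in TPC-1 and 26 for the difference. In LC-2/ad ASNS, CBS and SESN2 were then not called (adjusted p = 0.0855, 0.0655 and 0.0584). For the difference YARS1 was not called (0.0778), and PHGDH and WARS1 were (0.0248 and 0.0416). The causes of these shifts were not tested. With 3 libraries per group and unknown depth, genes at a few TPM, such as ATF3, CHAC1, SLC1A4 and GDF15 in TPC-1, are the least precise.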
